A study of Mus musculus with 868 samples.

Results

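Cisplatin is a platinum drug used against solid tumours, and this account describes the heart transcriptome of mice given it. The members are all heart libraries labelled with cisplatin, 2 of the 868 libraries of the series, which covers 24 tissues and 18 treatments in C57BL/6N mice. They were compared with 16 heart libraries of 8 other treatments, 2 of each: 0.5% CMC with 0.25% Tween80 (the vehicle labelled CMCTween), Aripiprazole, Clozapine, Dox (labelled 2 mg per mL), EMPA (labelled as oral for 2 weeks), Lenalidomide, Repatha and Teriparatide. All 18 are 3′ end RNA-seq libraries of whole frozen tissue. These 8 treatments serve as the comparison because their heart libraries were placed in the same library set as the cisplatin libraries. That grouping was taken from the expression values and is not stated in the labels, and no test of it is given here. The other 18 heart libraries belong to other treatments and were not used in the main comparison. The labels give no dose, route, time after dosing or age for cisplatin, and they do not say whether the replicates numbered 1 and 3 came from separate animals, so p-values measure the spread between libraries, which may be technical.

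As background, cisplatin crosslinks DNA, and damaged DNA stabilises p53, a transcription factor that switches on cell-cycle arrest and death genes such as Cdkn1a. Platinum also binds the thiols of metallothioneins, small metal-binding proteins that glucocorticoids and metals both induce. The heart runs mainly on fatty acids, whose oxidation genes are under PPARA, and its muscle cells lose protein in fasting and illness through ubiquitin ligases under FOXO factors. Fibroblasts make the collagen matrix between the muscle cells, and resident macrophages display antigen on MHC class II molecules.

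Total counts were 1047490 and 758400 in cisplatin replicates 1 and 3, against 668435 to 1396516 in the 16 comparison libraries (median 754428). Of 24421 genes in the table, 8215 passed the filter on low counts. Heart identity was present throughout: the 12 heart muscle markers, of which 1 rose and 7 fell in the test below (1 and 3 without cisplatin replicate 1), summed to 54670 and 56230 CPM in the cisplatin libraries, against 62200 to 83290 CPM, and Myh6, the main myosin of the adult mouse heart, was at 5967 and 6029 CPM against 4830 to 8877 CPM (median 6850). CPM here are counts scaled to the TMM-adjusted library total. The ribosomal precursor Rn45s took 62440 and 44970 CPM, against 47220 to 271400 CPM (median 105500), so its share was low in the cisplatin libraries and overlapped the comparison range. The library of Clozapine replicate 3 stood apart, with 5698 CPM summed over the 10 tested fibroblast markers against 2494 to 3206 CPM in the other 15 comparison libraries. Both libraries of Teriparatide differed from each other the most, by a chi-square of 8.40 per gene against 1.36 to 2.63 for the other groups and 2.04 for cisplatin. Liver transcripts varied from library to library, and their sum was higher in the higher-numbered library of each treatment. It was 3.77 and 238 CPM in cisplatin replicates 1 and 3. Alb was at 0 and 109 CPM in these 2 libraries, against 0 to 90.01 CPM. Pancreas transcripts varied too, with Ctrb1 at 17.9 and 1.27 CPM in cisplatin replicates 1 and 3, against 0 to 23.3 CPM. Both genes passed the test below (log2 fold change 3.36 and 2.22), each carried by 1 cisplatin library: without replicate 3 for Alb, and without replicate 1 for Ctrb1, neither passed and both signs reversed (-5.13 and -0.70).

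Promoter windows are printed here for 5 genes that changed in the results below: the p53 effector Cdkn1a, the metallothioneins, and MHC class II. No test below uses these windows or their motifs. Each is the window from RefSeq (GRCm38.p6) of 250 bases before to 50 bases after a start site, in the direction of transcription, with the matched motif in capitals. The motif CATGNNNNNNCATG, the paired core of a p53 site, occurred once in the Cdkn1a window at chr17:29090729-29091028 (+ strand), and 0.712% of 32851 such windows held it on either strand. A window at a downstream Cdkn1a start held no match. The core of the metal response element (TGCACNC or TGCGCNC) occurred 3 times in the Mt1 window at chr8:94178839-94179138 (+) and 4 times in the Mt2 window at chr8:94172368-94172667 (+), and 1.31% of windows held 3 or more. The Y box CTGATTGG of class II promoters occurred once in H2-Aa at chr17:34287774-34288073 (-) and once in H2-Eb1 at chr17:34305617-34305916 (+), and 4.1% of windows held it. A match describes letters and does not show binding.
Cdkn1a: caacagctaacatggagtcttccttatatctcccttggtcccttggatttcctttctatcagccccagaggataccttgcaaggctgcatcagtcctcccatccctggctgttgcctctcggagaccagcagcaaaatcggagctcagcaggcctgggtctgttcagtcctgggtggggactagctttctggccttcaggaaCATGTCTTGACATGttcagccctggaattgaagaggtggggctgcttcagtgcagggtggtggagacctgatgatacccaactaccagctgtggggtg
Mt1: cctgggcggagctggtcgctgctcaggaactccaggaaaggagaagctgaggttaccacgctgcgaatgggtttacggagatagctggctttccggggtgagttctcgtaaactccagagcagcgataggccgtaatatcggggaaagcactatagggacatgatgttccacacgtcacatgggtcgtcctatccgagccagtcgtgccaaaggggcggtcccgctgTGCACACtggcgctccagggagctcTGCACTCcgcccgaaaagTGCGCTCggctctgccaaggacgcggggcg
Mt2: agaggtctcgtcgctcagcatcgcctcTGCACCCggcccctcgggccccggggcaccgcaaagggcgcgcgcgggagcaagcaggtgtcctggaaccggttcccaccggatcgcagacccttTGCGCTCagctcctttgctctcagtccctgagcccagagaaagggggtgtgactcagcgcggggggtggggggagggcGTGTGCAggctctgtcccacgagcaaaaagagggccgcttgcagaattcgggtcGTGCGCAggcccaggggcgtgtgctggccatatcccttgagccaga
H2-Aa: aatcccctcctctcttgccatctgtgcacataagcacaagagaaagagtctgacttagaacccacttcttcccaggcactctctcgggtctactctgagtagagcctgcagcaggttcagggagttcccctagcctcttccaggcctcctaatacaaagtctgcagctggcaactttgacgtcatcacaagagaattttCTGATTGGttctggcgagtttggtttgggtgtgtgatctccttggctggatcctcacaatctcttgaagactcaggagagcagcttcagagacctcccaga
H2-Eb1: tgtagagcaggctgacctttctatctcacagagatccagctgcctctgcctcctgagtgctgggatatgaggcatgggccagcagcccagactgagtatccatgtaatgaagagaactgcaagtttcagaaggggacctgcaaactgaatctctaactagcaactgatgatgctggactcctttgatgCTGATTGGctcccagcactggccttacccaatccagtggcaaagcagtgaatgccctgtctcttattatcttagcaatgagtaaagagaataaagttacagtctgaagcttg

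In hearts of cisplatin-treated mice, metallothioneins, the cell-cycle inhibitor Cdkn1a, glucocorticoid-responsive genes and genes of fatty acid use were higher, while collagens, MHC class II genes, cardiac alpha-actin (Actc1) and atrial natriuretic peptide (Nppa) were lower. At an adjusted p under 0.05 (edgeR quasi-likelihood test, cisplatin minus the mean of the 8 treatments), 1368 genes differed, 16.7% of those tested. Of these, 760 (9.25%) were higher and 608 (7.4%) were lower with cisplatin. The counts of called list members below stand beside these shares of all tested genes. A count near them does not set a list apart. The change was at least 2-fold in 334 genes and at least 4-fold in 52, and the median over all tested genes was 0.01 on the log2 scale. Both cisplatin libraries lay outside the whole range of the 16 comparison libraries for 991 genes (12.1% of those tested), and 1313 of the 1368 had the same sign against each of the 8 treatments. The number of calls rested on both cisplatin libraries: it was 406 without replicate 1, of which 394 were shared, and 834 without replicate 3, of which 765 were shared. With 1 cisplatin library left, its spread is taken to be that of the other groups.

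**Figure D1:**
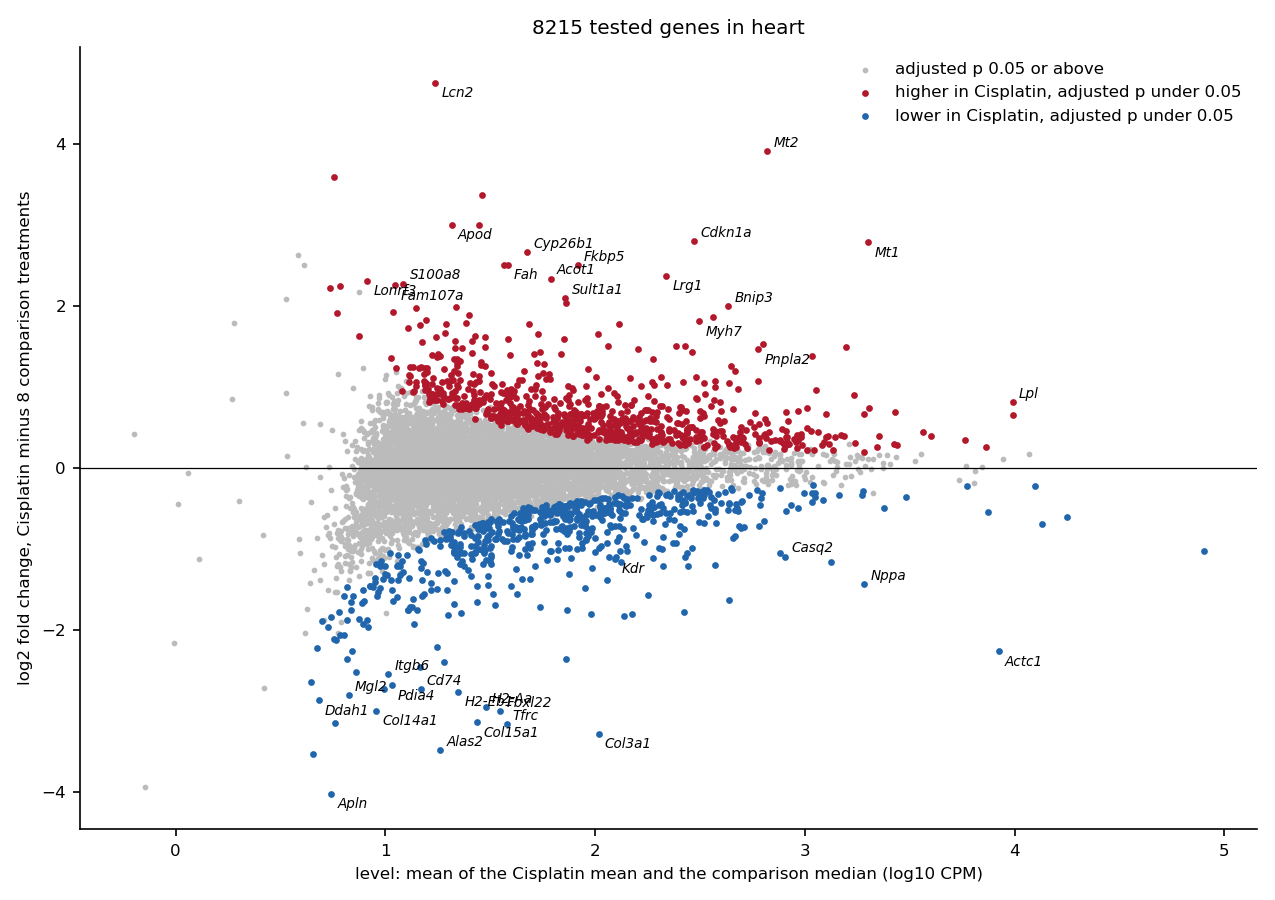
Each point is 1 of 8215 tested genes; the horizontal axis is the expression level (log10 CPM) and the vertical axis the log2 fold change of cisplatin against the 8 comparison treatments. Red points (760) are higher and blue points (608) lower with cisplatin at an adjusted p under 0.05, with Lcn2 and Mt2 at the top and Apln, Alas2 and Col3a1 at the bottom.

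The largest increase by the naming rule was in Lcn2, a secreted protein that sequesters bacterial iron carriers, at 38.6 and 27.8 CPM in cisplatin replicates 1 and 3 against 0 to 4.19 CPM (median 1.33) in the comparison libraries. Its log2 fold change was 4.76 ± 0.44 (standard error; adjusted p = 7.9e-10); since 1 comparison treatment had no count in either library, that fold depends on how the fit treats 0. Mt2 stood at 1344 and 1147 CPM against 23.8 to 450.2 CPM (median 75.5), a log2 fold change of 3.91 ± 0.16 (adjusted p = 6.7e-19). Both lay above every comparison library, which the naming rule requires. Apod, a lipid-carrying lipocalin, was at 54.6 and 18.97 CPM against 1.41 to 14.5 CPM (median 4.67) (log2 fold change 3.001 ± 0.33), again without overlap. Lrg1, a secreted leucine-rich glycoprotein, had nearly equal levels in both cisplatin libraries, 366 and 364 CPM, against 43.6 to 92.5 CPM (median 70.03) (2.37 ± 0.10, adjusted p = 1.7e-18). Cyp26b1, which inactivates retinoic acid, reached 87.6 and 78.4 CPM against 1.32 to 33.3 CPM (median 11.96) (2.66 ± 0.27). Fah, the last enzyme of tyrosine breakdown, was at 90.4 and 39.2 CPM against 6.43 to 23.9 CPM (median 11.9) (2.51 ± 0.23). Lonrf3, a ubiquitin ligase-like protein (2.31), Fam107a, a glucocorticoid- and stress-induced actin regulator (2.26), and S100a8, a calcium-binding protein of neutrophils (2.28), were also among the largest increases. Without cisplatin replicate 1 the adjusted p was 0.060 for Lonrf3 and 0.085 for S100a8.

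Among the decreases, Tfrc, the transferrin receptor that brings iron into cells, was at 6.59 and 10.1 CPM with cisplatin against 37.98 to 172 CPM (median 67.2), a log2 fold change of -3.16 ± 0.30 (adjusted p = 1.3e-09). Fbxl22, a ubiquitin ligase subunit of the sarcomere Z-disc, was at 7.53 and 7.59 CPM against 37.5 to 90.3 CPM (median 62.9) (-3.01 ± 0.28). Neither gene overlapped the comparison range, which the naming rule requires. Apln, the ligand of the apelin receptor, had 1 count in both cisplatin libraries together and 153 in the 16 comparison libraries, a ratio of 0.0518 per scaled count (95% interval 0.0013 to 0.293, counting error only). Ddah1, which breaks down an inhibitor of nitric oxide synthase, had 2 counts against 124, a ratio of 0.128 (0.0153 to 0.472). Itgb6, an epithelial integrin subunit, was at 1.88 and 3.79 CPM against 4.36 to 29.8 CPM (median 17.8) (-2.55 ± 0.51). Without cisplatin replicate 1 the adjusted p was 0.018 for Apln, 0.17 for Ddah1 and 0.079 for Itgb6; without replicate 3 it was 0.018, 0.055 and 0.0050. In bulk tissue, fewer cells of a type and less RNA per cell cannot be told apart, which applies to every decrease given here.

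**Figure D2:**
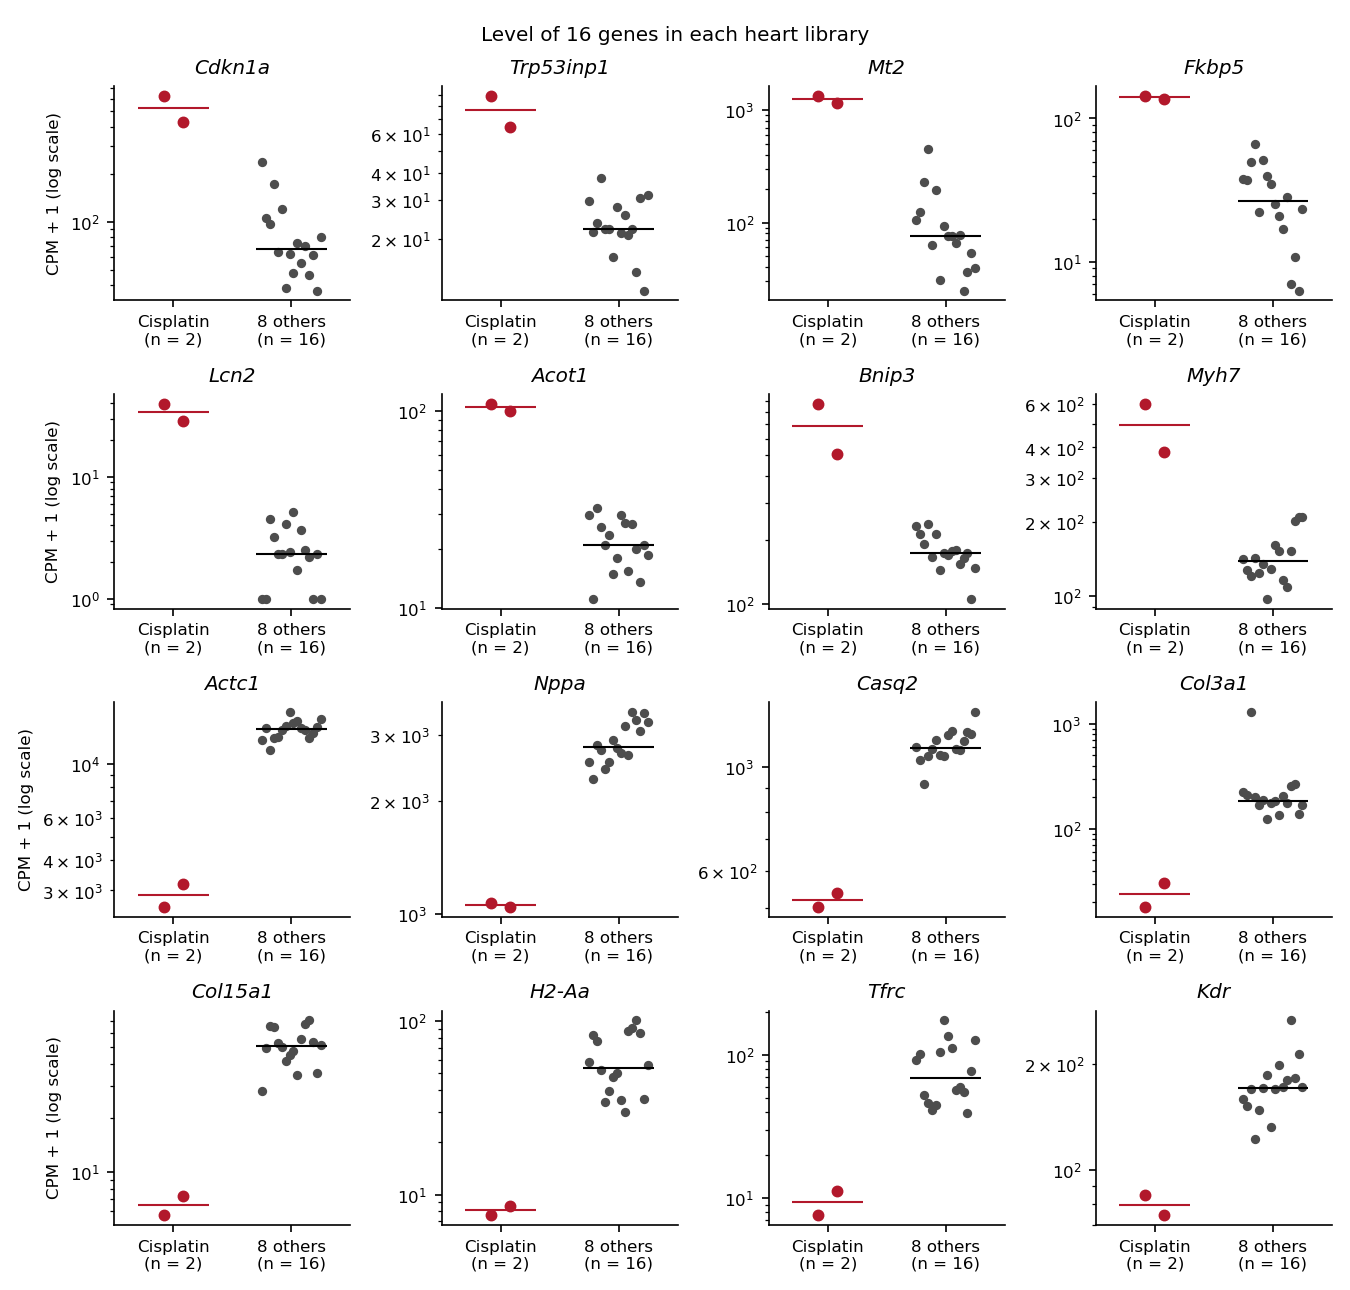
Level of 16 genes (CPM + 1, log scale) in the 2 cisplatin libraries (red, line at the mean) and the 16 comparison libraries (grey, line at the median). In all 16 panels both cisplatin points lie outside the range of the grey points. For the genes named by rank, such as Lcn2, Mt2 and Tfrc, this was a condition of the naming rule and is no separate result. In the Col3a1 panel the single high grey point is Clozapine replicate 3.

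Of 21 tested p53 targets, 8 rose and 0 fell, with a median log2 fold change of 0.28, beside 9.25% higher and a median of 0.01 over all genes. Cdkn1a, at chr17:29090976-29100727 (mm10, GENCODE M21), which encodes the cell-cycle inhibitor p21, had 626 and 425 CPM with cisplatin against 35.9 to 238 CPM (median 66.6), a log2 fold change of 2.80 ± 0.17 (adjusted p = 3.5e-14). Trp53inp1, a stress-induced autophagy and death regulator, had 88.5 and 63.2 CPM against 10.6 to 36.6 CPM (median 21.2) (1.78 ± 0.21). Ephx1, microsomal epoxide hydrolase, had 87.6 and 74.6 CPM against 14.6 to 42.2 CPM (median 25.7) (1.65 ± 0.19). In each of the 3 the cisplatin libraries lay above all comparison libraries, and each kept its call when either cisplatin library was left out. Bbc3, the death gene PUMA, was at 18.8 and 15.2 CPM against 0 to 9.29 CPM (median 4.72) (1.92 ± 0.46, adjusted p = 0.0029). Sesn1 (0.81), Btg2 (0.80), Ptp4a3 (0.60) and Aen (0.60) passed with smaller changes. Without cisplatin replicate 1, 4 of these 21 genes were called, with adjusted p of 0.19 for Bbc3, 0.089 for Sesn1, 0.060 for Btg2 and 0.33 for Aen; without replicate 3, 6 of the 21 were called, with 0.16 for Btg2 and 0.15 for Aen.

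Mdm2 and Ccng1, both classical p53 targets, did not pass. Mdm2, the ligase that degrades p53, had 42.4 and 56.9 CPM with cisplatin against 21.1 to 60.5 CPM (median 44.6), a log2 fold change of 0.18 ± 0.21 (adjusted p = 0.62). Ccng1, cyclin G1, had 339.8 and 326 CPM against 309 to 427 CPM (median 377) (-0.16 ± 0.09, adjusted p = 0.26). Both overlapped the comparison libraries. Phlda3 and Eda2r were below the filter and untested, at 19.8 and 12.7 CPM against 1.60 to 10.9 CPM (median 5.10) and at 10.4 and 12.7 CPM against 0 to 8.04 CPM (median 1.49); their cisplatin libraries lay above the comparison range at these low levels. Gdf15, a secreted stress hormone, was at 2.82 and 0 CPM against 0 to 2.82 CPM (median 0) and was also untested. Of 13 tested DNA repair genes, 1 rose (Ddb1, damage recognition, 0.47, adjusted p = 0.20 without replicate 1) and 0 fell.

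Of 21 tested glucocorticoid-responsive genes, 13 rose and 0 fell, with a median log2 fold change of 0.89. Against the vehicle CMCTween alone, 7 rose and 0 fell (median 0.45). With the comparison libraries fitted as 1 group, 8 rose and 0 fell (median 0.69). Fkbp5, a cochaperone of the glucocorticoid receptor and one of its strongest targets, had 143 and 135 CPM with cisplatin against 5.31 to 65.2 CPM (median 25.8), a log2 fold change of 2.50 ± 0.18 (adjusted p = 1.9e-12). Mt1 had 4137 and 2914 CPM against 304 to 966 CPM (median 494) (2.78 ± 0.11, adjusted p = 1.8e-19), and the motif-bearing Mt1 and Mt2 windows printed above belong to these genes. Sult1a1, a phenol sulfotransferase, had 137 and 96.1 CPM against 11.3 to 52.2 CPM (median 27.4), and Map3k6, a stress kinase, had 46.1 and 29.1 CPM against 3.57 to 25.6 CPM (median 10.9) (2.096 and 1.79 on the log2 scale). None of these 4 overlapped the comparison libraries. In edgeR against CMCTween alone, the classical targets Tsc22d3 (0.12), Zbtb16 (0.34) and Ddit4 (0.62) did not pass (adjusted p = 0.83, 0.44 and 0.34). Klf9 did (0.40, adjusted p = 0.039). Against the 8 treatments, Tsc22d3 (0.58), Zbtb16 (0.89), Klf9 (0.48) and Ddit4 (1.02) rose by less than the genes above. Those 4 lost their calls without cisplatin replicate 1 (adjusted p = 0.31, 0.22, 0.082 and 0.27), where the list count was 6; without replicate 3 it was 13. Per1 (0.61, adjusted p = 0.16) and Sgk1 (0.32, adjusted p = 0.43) did not pass. The list holds Lcn2, Mt1 and Mt2, which metals and inflammation also induce.

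Among acute phase and inflammation genes, 5 of 12 rose and 0 fell (median 0.40). With DESeq2, 0 of the 12 were called and 7 had no adjusted p. Against CMCTween alone, 3 rose and 0 fell. Serpina3n, a secreted protease inhibitor of the acute phase, had 47.1 and 53.1 CPM against 0 to 53.1 CPM (median 5.55) (3.01 ± 0.36, adjusted p = 1.5e-07), and overlapped the comparison range at 1 library. Socs3, a feedback inhibitor of cytokine signalling, had 25.4 and 36.7 CPM against 1.33 to 65.2 CPM (median 7.56) (1.66 ± 0.39), and Osmr, the oncostatin M receptor, 26.4 and 26.6 CPM against 5.31 to 21.96 CPM (median 11.6) (1.22 ± 0.28). Socs3 lost its call without replicate 3 (adjusted p = 0.092) and Osmr without replicate 1 (0.082), where 3 of the list were called. Interferon-stimulated genes showed 0 higher and 1 lower of 15, the single call being B2m (-0.50), which lost it without replicate 1 (0.19) or 3 (0.10).

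Among the lists, genes of fatty acid and ketone use held the most increases. Of 29 tested PPARA targets and ketone genes, 22 rose and 1 fell (median 0.56); without cisplatin replicate 1 the counts were 16 and 0, and without replicate 3 they were 15 and 1. Acot1, a cytosolic acyl-CoA thioesterase, had 107 and 98.7 CPM with cisplatin against 10.2 to 31.1 CPM (median 19.9) (2.34 ± 0.17), and its near-identical neighbour Acot2 106 and 166 CPM against 36.2 to 92 CPM (median 65.4) (1.12 ± 0.15), so reads may be split between them with error. Lpl, the lipase that frees fatty acids from circulating lipoproteins, was abundant and rose to 13230 and 11930 CPM against 5455 to 8555 CPM (median 7008) (0.81 ± 0.06, adjusted p = 1.5e-11). None of the 3 overlapped the comparison libraries.

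Smaller increases were spread over mitochondrial fatty acid oxidation. Decr1, which handles unsaturated fatty acids, changed by 0.71 ± 0.09, Eci1 by 0.56 ± 0.09, and Plin5, a lipid droplet coat of oxidative muscle, by 0.77 ± 0.11 on the log2 scale; each kept its call without either cisplatin library. Fabp3, the fatty acid carrier of heart, had 6553 and 6352 CPM against 4201 to 5794 CPM (median 5090) (0.35 ± 0.06). Pdk4, which blocks pyruvate entry into the mitochondrion, had 165 and 267 CPM against 51.4 to 434 CPM (median 110.4) (0.57 ± 0.19, adjusted p = 0.031), overlapping the comparison range and losing its call without replicate 3 (0.70). Oxct1, an enzyme of ketone use, was the 1 decrease, at 1229 and 1327 CPM against 1428 to 1888 CPM (median 1616) (-0.34 ± 0.08). Without replicate 1 its log2 fold change was -0.28 and the call was lost. Outside this list, Pnpla2, the first lipase of stored triglyceride, had 933 and 832 CPM against 280.3 to 474 CPM (median 312) (1.47 ± 0.09, adjusted p = 1.2e-14), and the lipid droplet protein Plin4 487 and 385 CPM against 119.6 to 275 CPM (median 146) (1.43 ± 0.11). Both were above every comparison library. The white fat markers with Plin4 among them did not move as one: 2 of 5 were higher and 1 lower.

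Atrophy and autophagy genes also rose: 15 of 23 tested members of the FOXO list were higher and 0 lower (median 0.56). Bnip3, a receptor for removal of mitochondria, had 872 and 508 CPM with cisplatin against 105 to 238 CPM (median 173), a log2 fold change of 1.99 ± 0.11 (adjusted p = 5.1e-15). Fbxo32 (atrogin-1), a muscle ubiquitin ligase, had 716 and 450.3 CPM against 185 to 385 CPM (median 289.5) (1.05 ± 0.11), and its partner Trim63 (MuRF1) had 434 and 348 CPM against 197 to 276 CPM (median 239) (0.71 ± 0.09). The autophagosome protein Map1lc3b changed by 1.20 ± 0.09, the autophagy cargo receptor Sqstm1 by 1.001 ± 0.09 and the lysosomal protease Ctsl by 1.35 ± 0.12. All 6 lay above the comparison range and kept their calls without either cisplatin library. The list count was 9 without replicate 1 and 15 without replicate 3. NRF2 targets, which protect against oxidants, had 7 of 17 higher and 0 lower (median 0.16; 3 without replicate 1), led by Aox1 (1.26 ± 0.22), Srxn1 (1.17 ± 0.21; adjusted p = 0.069 without replicate 1) and Gstm1 (1.07 ± 0.09).

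**Figure D3:**
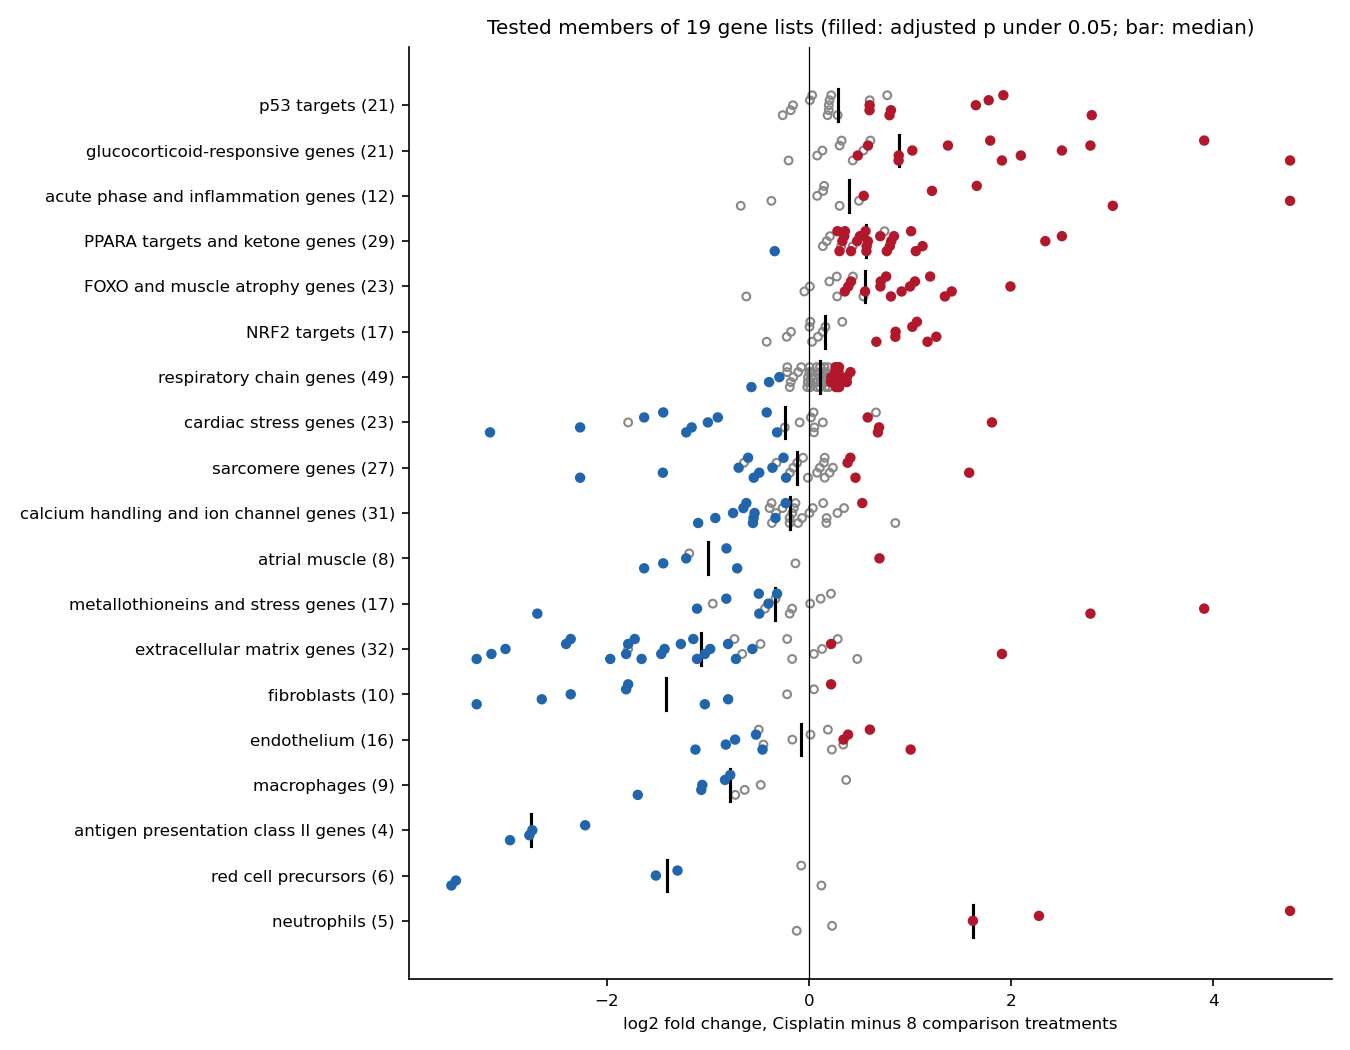
Log2 fold change (cisplatin minus the 8 comparison treatments) of the tested members of 19 gene lists, with the number tested in brackets. Filled points passed an adjusted p under 0.05 (red higher, blue lower), open points did not, and the bar is the list's median: 0.89 for the glucocorticoid list, -1.07 for the matrix list and -2.75 for MHC class II.

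Respiratory chain genes shifted little: 13 of 49 were higher and 3 lower, with a median of 0.11 on the log2 scale and no member beyond -0.57 (Sdhd) or 0.41 (Ndufa5). That count fell to 4 higher and 0 lower without cisplatin replicate 1, and to 2 and 2 without replicate 3; the adjusted p was 0.42 for Sdhd without replicate 1 and 0.075 for Ndufa5 without replicate 3. In the glucose list, 7 of 27 rose and 3 fell, against 2 and 1 without cisplatin replicate 1 and 4 and 3 without replicate 3. Hk2, the insulin-responsive hexokinase, had 309.7 and 295 CPM against 332 to 554 CPM (median 448) (-0.55 ± 0.10), while Pdk1, which inhibits pyruvate dehydrogenase, had 113 and 124 CPM against 57.9 to 86.1 CPM (median 78.6) (0.62 ± 0.12). Neither overlapped. Txnip, which limits glucose uptake, had 1614 and 1252 CPM against 266 to 1708 CPM (median 820.1) (0.96 ± 0.18; adjusted p = 0.070 without replicate 1). Lipid synthesis genes had 4 of 19 higher (2 without replicate 1) and 1 lower, with Lpin1, which makes diacylglycerol, at -0.56 ± 0.11 and Mid1ip1, an activator of acetyl-CoA carboxylase, at 0.68 ± 0.14. Of 7 tested cholesterol synthesis genes 0 passed in edgeR and 0 in DESeq2, and 2 had an unadjusted p under 0.05 in edgeR.

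Cardiac muscle genes moved in both directions. Of 23 tested cardiac stress genes, 4 rose and 10 fell (median -0.24). Actc1, cardiac alpha-actin, at chr2:114047282-114053548 (mm10), had 2562 and 3202 CPM with cisplatin against 11450 to 16330 CPM (median 13960), a log2 fold change of -2.26 ± 0.08 (adjusted p = 8.6e-20), the smallest adjusted p of all genes. Myh7, the slow beta-myosin that rodents express before birth and under cardiac load, had 599.7 and 382 CPM against 96.3 to 208 CPM (median 137) (1.81 ± 0.11, adjusted p = 2.3e-14). Its fast partner Myh6 did not pass (-0.19 ± 0.12, adjusted p = 0.30). Actc1 lay below and Myh7 above every comparison library. Nppa, atrial natriuretic peptide, which rises with Myh7 in classical cardiac stress, had 1067 and 1040 CPM against 2283 to 3446 CPM (median 2785) (-1.44 ± 0.09, adjusted p = 3.3e-14). Nppb, brain natriuretic peptide, had 2 counts with cisplatin and 175 in the comparison libraries, a ratio of 0.0906 (95% interval 0.0109 to 0.332, counting error only), and lost its call without replicate 1 (adjusted p = 0.28). Acta1, skeletal alpha-actin, was at 85.7 and 94.9 CPM against 99.4 to 409 CPM (median 163) (-0.90 ± 0.17), and Fhl2, a LIM protein of the sarcomere, at 811 and 813 CPM against 1390 to 2219 CPM (median 1853) (-1.16 ± 0.09); both were below the comparison range.

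Of 27 tested sarcomere genes, 4 rose and 9 fell (median -0.12), against 2 and 6 without cisplatin replicate 1. The giant protein Ttn had 13620 and 14550 CPM against 17350 to 26990 CPM (median 21310) (-0.60 ± 0.07), Tpm1, alpha-tropomyosin, 10090 and 10440 CPM against 14190 to 18750 CPM (median 16730) (-0.69 ± 0.06), and Myl2, the ventricular light chain, 5657 and 6430 CPM against 7514 to 10550 CPM (median 8826) (-0.55 ± 0.07). All 3 lay below every comparison library. Myot, a Z-disc protein, rose to 62.1 and 56.9 CPM against 4.66 to 39.8 CPM (median 17.5) (1.59 ± 0.21), and Synpo2l, another Z-disc protein, was at 15.1 and 18.97 CPM against 31.5 to 77.4 CPM (median 44.4) (-1.44 ± 0.23). Troponin T (Tnnt2, 0.11, adjusted p = 0.25) did not pass. Among calcium handling and channel genes, 1 of 31 was higher and 10 were lower (median -0.19), a count that became 0 and 4 without replicate 1. Casq2, the calcium store protein of the sarcoplasmic reticulum, had 501 and 538 CPM against 918 to 1305 CPM (median 1096) (-1.10 ± 0.08, adjusted p = 5.3e-12), and Asph, whose gene also encodes its partner junctin, 139 and 201 CPM against 276 to 391 CPM (median 315) (-0.93 ± 0.12). Slc8a1, the sodium-calcium exchanger, changed by -0.55 ± 0.10. The single increase was Kcnj11, a subunit of the ATP-sensitive potassium channel (0.53 ± 0.12; adjusted p = 0.15 without replicate 1).

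Atrial markers moved with these genes. Of 8 tested, 5 fell and 1 rose, and their summed level was 2953 and 2952 CPM in the cisplatin libraries, against 4294 to 5960 CPM. Much of that sum was Nppa, at 1067 and 1040 CPM against 2283 to 3446 CPM. Myl7, the atrial light chain, had 179.8 and 247 CPM against 462 to 801 CPM (median 656) (-1.63 ± 0.12), and Myl4, another atrial light chain, 157 and 181 CPM against 303 to 474 CPM (median 386) (-1.21 ± 0.12). Sln, sarcolipin of atrial muscle, did not follow, at 245 and 245 CPM against 203 to 329 CPM (median 277) (-0.13 ± 0.12, adjusted p = 0.51), and Clu rose (0.70 ± 0.08). How much atrium each sample held, and its part in the Nppa, Myl7 and Myl4 values, was not tested.

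Among the lists, that of the extracellular matrix held the most decreases. Of 32 tested members, 20 fell and 2 rose, with a median log2 fold change of -1.07, beside 7.4% lower over all genes. Col3a1, at chr1:45311538-45349706 (mm10), which encodes a fibrillar collagen of soft tissue, had 16.9 and 29.1 CPM with cisplatin against 123 to 1290 CPM (median 185), a log2 fold change of -3.29 ± 0.50 (adjusted p = 1.2e-05). Col15a1, a basement membrane collagen, had 4.71 and 6.32 CPM against 27.1 to 69.1 CPM (median 49.4) (-3.14 ± 0.32, adjusted p = 5.4e-09). Sparc, a matrix protein that assists collagen assembly, had 177 and 175 CPM against 286 to 773 CPM (median 362) (-1.11 ± 0.18), and Col6a2 6.59 and 5.06 CPM against 10.6 to 49.5 CPM (median 32.4) (-2.40 ± 0.38). All 4 lay below every comparison library and kept their calls without either cisplatin library. Without Clozapine replicate 3, the highest comparison library for Col3a1, the log2 fold change of Col3a1 was -3.05 and the list counts were 21 lower and 2 higher.

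The fibrillar collagen chains Col1a1, at 19.8 and 31.6 CPM against 66.8 to 856 CPM (median 119) (-2.36 ± 0.53), and Col1a2, at 64.96 and 86.01 CPM against 179 to 1127 CPM (median 224) (-1.81 ± 0.35), were also below the comparison range. Col14a1, at 0.941 and 3.79 CPM against 6.63 to 53.8 CPM (median 15.7), was lower too (-3.00 ± 0.70). Without cisplatin replicate 1 these 3 lost their calls (adjusted p = 0.12, 0.056 and 0.17), and the matrix list had 7 lower; without replicate 3 it had 17. Dcn, decorin, went the other way by a small amount, at 1229 and 1155 CPM against 849 to 1340 CPM (median 1014) (0.22 ± 0.08, adjusted p = 0.048, 0.44 without replicate 1 and 0.13 without replicate 3). Lox, a collagen crosslinker, was high in 1 cisplatin library only, at 16.9 and 1.27 CPM against 0 to 19.1 CPM (median 2.66) (1.91 ± 0.67), and its sign reversed without replicate 1 (-0.93, adjusted p = 0.85). Of 10 fibroblast markers 7 fell and 1 rose, 3 of the falling ones being the collagens above; without cisplatin replicate 1 the counts were 1 and 0, and without replicate 3 they were 5 and 0. Pdgfra, a receptor that marks fibroblasts, had 16.9 and 11.4 CPM against 17.7 to 37.2 CPM (median 23.99) (-0.80 ± 0.28, adjusted p = 0.046, 0.14 without replicate 1, 0.35 without replicate 3 and 0.051 without Clozapine replicate 3).

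In the list of metallothioneins and stress genes, 2 of 17 rose, both of them metallothioneins, and 7 fell; without cisplatin replicate 1 the counts were 2 and 2, and without replicate 3 they were 2 and 5. The decreases were in chaperones of the endoplasmic reticulum (Pdia4, Calr, Hspa5 and Hsp90b1) and of the cytosol (Hsph1, Hsp90aa1 and Hspb1). Pdia4, a disulphide isomerase, had 3.77 and 1.27 CPM against 10.6 to 24.1 CPM (median 18.9) (-2.69 ± 0.49), Calr, calreticulin, 190.2 and 179.6 CPM against 259.8 to 440.3 CPM (median 315) (-0.82 ± 0.11), and Hspa5, the master chaperone BiP, 674 and 877 CPM against 912 to 1553 CPM (median 1070) (-0.50 ± 0.09; adjusted p = 0.11 without replicate 1). All 3 were below the comparison range. Hsp90b1 changed by -0.49, Hsph1 by -1.11, Hsp90aa1 by -0.40 and Hspb1 by -0.31, with adjusted p of 0.20, 0.077, 0.40 and 0.34 without replicate 1 and 4.3e-04, 0.064, 0.029 and 0.10 without replicate 3. Other proteins of the endoplasmic reticulum did not pass, among them the cochaperone Dnajb9 (0.12, adjusted p = 0.82), Manf (-0.33, 0.32) and Creld2 (-0.95, 0.19). The integrated stress response list had 3 of 8 higher (1 without replicate 1) and 0 lower, with Slc3a2, an amino acid transporter chain, at 0.67 ± 0.14 (adjusted p = 0.073 without replicate 1).

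MHC class II genes were lower in both cisplatin libraries: 4 of 4 tested fell and 0 rose, with a median log2 fold change of -2.75, and the 4 calls remained without either cisplatin library. H2-Aa, the alpha chain of I-A, had 6.59 and 7.59 CPM with cisplatin against 28.99 to 100.1 CPM (median 52.9), a log2 fold change of -2.96 ± 0.30 (adjusted p = 4.7e-09). H2-Eb1, a beta chain, had 4.71 and 6.32 CPM against 21.2 to 53.04 CPM (median 39.02) (-2.76 ± 0.35). Cd74, the invariant chain that escorts class II molecules, had 3.77 and 3.79 CPM against 16.1 to 53.5 CPM (median 25.6) (-2.74 ± 0.41), and H2-Ab1 5.65 and 6.32 CPM against 11.9 to 58.8 CPM (median 29.3) (-2.21 ± 0.35). No cisplatin value reached the lowest of the 16 libraries in any of the 4.

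Markers of macrophages moved in the same direction. Of 9 tested, 5 fell and 0 rose, with a level summed over all 17 listed genes of 263 and 195 CPM in the cisplatin libraries, against 270.1 to 662 CPM. Csf1r, the growth factor receptor on which macrophages depend, had 15.1 and 18.97 CPM against 38.5 to 97.7 CPM (median 49.3) (-1.69 ± 0.27, adjusted p = 1.7e-05). Mrc1, a mannose receptor of resident macrophages, had 15.1 and 17.7 CPM against 20.9 to 66.5 CPM (median 34.6) (-1.06 ± 0.26; adjusted p = 0.17 without replicate 1), and Mgl2, a lectin of macrophages and dendritic cells, had 3 counts against 176, a ratio of 0.135 (95% interval 0.0276 to 0.401, counting error only). The complement genes C1qb (-0.83) and C1qc (-0.78) fell by less and lost their calls without replicate 1 (0.074 and 0.20) or 3 (0.21 and 0.30). The macrophage count was 1 without replicate 1 and 2 without replicate 3. Whether the class II values follow the number of these cells was not tested.

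Red cell precursor markers had 4 of 6 lower and 0 higher: Alas2, the first enzyme of red cell haem synthesis, had 4.71 and 1.27 CPM with cisplatin against 19.3 to 71.3 CPM (median 33.6) (-3.49 ± 0.42, adjusted p = 1.7e-07). Without cisplatin replicate 1, 1 of these markers was called. Neutrophil markers had 3 of 5 higher (1 without replicate 1 and 2 without replicate 3) and 0 lower, with a level summed over all 11 listed genes of 139 and 121 CPM in the cisplatin libraries, against 37.2 to 80.2 CPM, and these were Lcn2, S100a8 (23.5 and 17.7 CPM against 0 to 13.1 CPM (median 3.71)) and S100a9 (13.2 and 8.85 CPM against 0 to 16.7 CPM (median 3.88)). S100a9 overlapped the comparison range and lost its call without replicate 1 (adjusted p = 0.48) or 3 (0.086). The amount of blood left in each heart was not recorded in the labels.

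**Figure D4:**
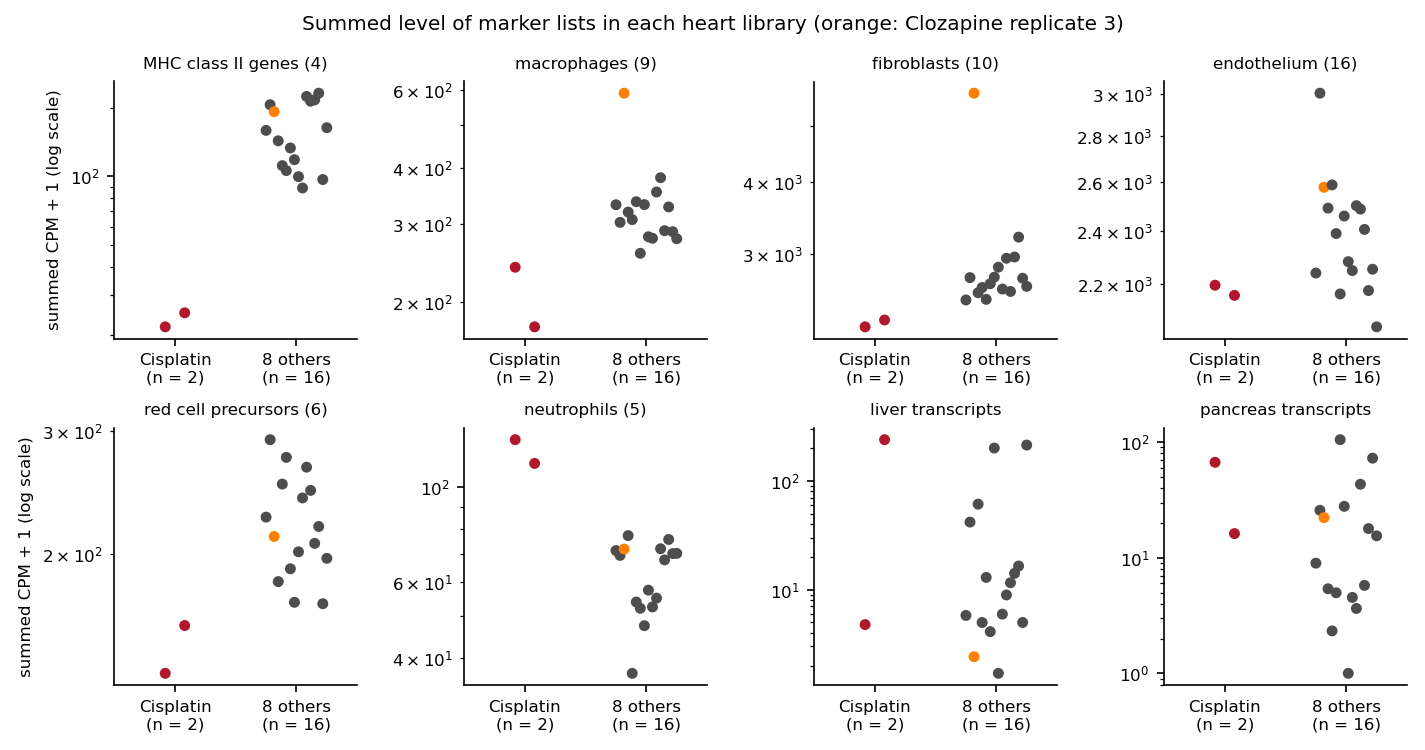
Summed level (CPM + 1, log scale) of the tested members of 6 lists, number in brackets, and of liver and pancreas transcripts in the 2 cisplatin libraries (red) and 16 comparison libraries (grey, Clozapine replicate 3 in orange). The cisplatin libraries are lowest for MHC class II, macrophages, fibroblasts and red cell precursors and highest for neutrophils, and they differ from each other for liver and pancreas.

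In the vessel wall, endothelial markers went both ways, 4 higher and 5 lower of 16, against 1 and 2 without cisplatin replicate 1. Kdr, the main VEGF receptor, had 83.8 and 73.4 CPM with cisplatin against 122 to 265 CPM (median 170) (-1.12 ± 0.16, adjusted p = 3.8e-06), while Flt1, the decoy VEGF receptor, had 196 and 163 CPM against 90.3 to 152 CPM (median 122) (0.60 ± 0.12; adjusted p = 0.14 without replicate 1). Ly6c1 rose to 243 and 196 CPM against 69.04 to 164 CPM (median 112) (1.01 ± 0.14), and the pan-endothelial Pecam1 passed narrowly (0.39 ± 0.13; 0.85 without replicate 1). Smooth muscle and pericyte markers had 4 of 9 lower (1 without replicate 1), among them Acta2, smooth muscle actin, at 55.5 and 69.6 CPM against 67.9 to 355 CPM (median 166) (-1.38 ± 0.25), which overlapped. Cell division genes had 3 of 10 lower and 0 higher, beside 7.4% lower over all genes. The other 7 were not called, and the list's median log2 fold change was 0.20. Ccnd1, cyclin D1, had 79.1 and 59.5 CPM against 98.3 to 193 CPM (median 139) (-0.99 ± 0.15). The centromere protein Cenpf had 29.2 and 21.5 CPM against 22.3 to 195 CPM (median 84.03) (-1.72 ± 0.21), and overlapped the comparison range.

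Other marker lists were small or held few calls. Over all tested genes 9.25% were higher and 7.4% lower, and several counts here are near those shares. Skeletal muscle markers had 2 of 6 lower, among them Ckm, muscle creatine kinase (-0.44 ± 0.11; adjusted p = 0.097 without cisplatin replicate 1 and 0.085 without replicate 3), and platelet markers 1 of 2 lower (Pf4, -0.90 ± 0.29; 0.45 without replicate 3). Brown fat markers had 1 of 3 higher (Cidea, 0.80 ± 0.19; 0.70 without replicate 1). The lung markers Sftpc and Scgb1a1 were tested and neither passed in edgeR or DESeq2, with Scgb1a1 at an unadjusted p under 0.05, while 0 of 1 tested marker passed for B cells (Ebf1, -0.32) and for Schwann cells and neurons. No member of the mesothelium or T and NK cell lists passed the filter, and 1 member of the thymocyte list did. Immediate early genes had 6 of 16 higher (4 without replicate 1 and 3 without replicate 3), led by Junb (1.32 ± 0.26). Genes of the circadian clock had 2 higher and 2 lower of 16 (0 and 1 without replicate 1, 1 and 0 without replicate 3), and genes of the growth hormone and IGF axis 2 lower of 13, Ghr, the growth hormone receptor, by -0.65 ± 0.14 and Igf1 by -0.97 ± 0.34; both lost their calls without replicate 1 (0.13 and 0.81). Of 8 tested platinum transport genes, Tmem205 rose (0.75 ± 0.17), and Slc22a3, an organic cation transporter, fell (-1.36 ± 0.43); without replicate 1 neither passed (0.52 and 0.28), and without replicate 3 Slc22a3 did not (0.12). The copper transporter Slc31a1, a route of cisplatin into cells, had 17.9 and 26.6 CPM against 7.95 to 26.6 CPM (median 17.5) and did not pass (adjusted p = 0.43). The strand setting of the counting is not given in the sources used here, and 53 genes named here overlap an annotated gene on the other strand, whose reads cannot be told apart from theirs: Acta1, Actc1, Alas2, Aqp4, Asph, B2m, Bnip3, Ccnd1, Cdkn1a, Cenpf, Cidea, Ckm, Col14a1, Col15a1, Csf1r, Ctsl, Ddb1, Dnajb9, Ebf1, Fabp3, Fbxl22, Fbxo32, Fhl2, Fkbp5, H2-Eb1, Hk2, Hsp90b1, Igf1, Junb, Lox, Manf, Map1lc3b, Mid1ip1, Mt2, Myh6, Myh7, Myl2, Myl4, Nppa, Oxct1, Pdgfra, Plet1os, Plin4, Slc22a3, Slc31a1, Slc8a1, Sox4, Spsb1, Sqstm1, Sult1a1, Tmem205, Ttn and Txnip.

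The same contrast was made in skeletal muscle, another striated muscle, and in kidney, the organ cisplatin is known to injure, each from 2 cisplatin and 16 comparison libraries of the same treatments. In skeletal muscle 4236 of 8208 tested genes differed and in kidney 3176 of 9773, against the 1368 of 8215 in heart. A joint fit tested whether the response itself differed. It did for 2034 of 9626 genes between heart and skeletal muscle (21.1%; 939 with the more positive change in heart, 1095 with the more negative) and for 1796 of 10320 between heart and kidney (17.4%; 965 and 831). Both tests use the same heart libraries, and the differences below come from the joint fits while the changes in each tissue come from its own fit. The first count became 1265 without heart replicate 1 and 1252 without skeletal muscle replicate 3, and the second 1102 without heart replicate 1 and 985 without kidney replicate 1.

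The p53 response was smaller in heart than in kidney for part of the list. Of 21 members tested in both, 17 rose in kidney, beside 1629 of all 9773 genes tested there, and 8 rose in heart. The response was lower in heart for 12 and higher for 0, beside 831 and 965 of all 10320 genes. Cdkn1a changed by 2.80 on the log2 scale in heart and 6.13 in kidney, a difference of -3.25 ± 0.30 (adjusted p = 2.5e-11). Mdm2 changed by 0.18 in heart and 2.67 in kidney (difference -2.41 ± 0.26), and Ccng1 by -0.16 in heart and 2.57 in kidney (-2.65 ± 0.13). Ephx1 differed by -1.16 ± 0.21. For Trp53inp1 the changes were 1.78 in heart and 2.13 in kidney, and the difference of -0.27 ± 0.27 did not pass (adjusted p = 0.57). Of 17 members tested in heart and skeletal muscle, the response was lower in heart for 5 and higher for 3. Over all 9626 genes of that fit, those counts were 1095 and 939. In skeletal muscle 8 of the 17 rose and 3 fell, and in heart 7 rose and 0 fell. Against skeletal muscle, Cdkn1a differed by -1.01 ± 0.28 (adjusted p = 0.0076, 0.12 without heart replicate 3, 0.093 without skeletal muscle replicate 3 and 0.11 when the 16 comparison libraries of each tissue were fitted as 1 group) and Sesn1 by -2.54 ± 0.21.

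Atrophy genes responded less in heart than in skeletal muscle. Of 23 FOXO list members tested in both, the response was lower in heart for 18 and higher for 2. Over all 9626 genes of that fit, those counts were 1095 and 939. The list's medians were 0.56 in heart and 2.06 in skeletal muscle. Trim63 changed by 0.71 in heart and 4.47 in skeletal muscle (difference -3.76 ± 0.18, adjusted p = 1.3e-18), and Fbxo32 by 1.05 in heart and 4.12 in skeletal muscle (-3.07 ± 0.19). Pdk4 differed by -2.34 ± 0.42 and Bnip3 by -0.54 ± 0.16, Bnip3 having an adjusted p of 0.45 without heart replicate 3, 0.27 without skeletal muscle replicate 3 and 0.052 with the comparison libraries as 1 group. Against kidney, Bnip3 had the more positive response in heart (1.82 ± 0.19). Respiratory chain genes went the other way: 37 of 49 had the more positive response in heart than in skeletal muscle and 0 the more negative, and against kidney 32 of 48 had the more positive and 0 the more negative. Their medians were 0.11 in heart, -0.32 in skeletal muscle and -0.34 in kidney. Over all genes, the response was more positive in heart for 939 of 9626 against skeletal muscle and 965 of 10320 against kidney.

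Metallothioneins, Fkbp5 and the class II gene H2-Aa changed with the same sign in the 3 tissues. Mt2 changed by 3.91 in heart, 3.56 in skeletal muscle and 3.66 in kidney, with differences of 0.35 ± 0.29 and 0.33 ± 0.27 that did not pass (adjusted p = 0.44 and 0.47). Fkbp5 differed from skeletal muscle by -0.12 ± 0.28 (adjusted p = 0.84) and from kidney by 0.94 ± 0.29 (0.020, but 0.18 without heart replicate 1, 0.088 without heart replicate 3, 0.14 without kidney replicate 3 and 0.32 with the comparison libraries as 1 group). A difference that misses the threshold does not show that the responses were alike. Mt1 rose less in heart than in skeletal muscle (-1.09 ± 0.25, adjusted p = 0.0014), a call lost without skeletal muscle replicate 3 (0.05001) and with the comparison libraries as 1 group (0.11). Of the class II genes, H2-Aa changed by -2.96 in heart, -1.95 in skeletal muscle and -1.41 in kidney, and the difference passed against kidney (-1.47 ± 0.47, adjusted p = 0.022) and not against skeletal muscle (-1.01 ± 0.60, 0.25). The kidney difference of H2-Aa lost its call without heart replicate 1 (0.15), heart replicate 3 (0.057) or kidney replicate 1 (0.16), and with the comparison libraries as 1 group (0.15).

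Matrix genes fell in both muscles. In the matrix list, 28 of 31 members tested in both muscles fell in skeletal muscle and 20 in heart, beside 1991 of 8208 genes lower in skeletal muscle. The response was more positive in heart for 10 of the 31 and more negative for 0. Over all 9626 genes of that fit, those counts were 939 and 1095. The list's medians were -1.03 in heart and -1.81 in skeletal muscle. Between heart and kidney, 16 of 22 had the more negative response in heart and 1 the more positive, beside 831 and 965 of all 10320 genes. In kidney 10 of the 22 rose, beside 1629 of all 9773 genes tested there. Col3a1 changed by -3.29 in heart, -4.49 in skeletal muscle and 1.12 in kidney, which differed from kidney (-4.34 ± 0.68, adjusted p = 4.8e-06) and not from skeletal muscle (1.21 ± 0.99, 0.43; with no filter on low counts that difference passed, 1.20 with an adjusted p of 0.0042). Col15a1 differed from kidney by -3.51 ± 0.56, a call lost without kidney replicate 1 (adjusted p = 0.31). Actc1 fell further in heart than in skeletal muscle (-1.63 ± 0.50, adjusted p = 0.017), but not without heart replicate 1 (0.13) or with the comparison libraries as 1 group (0.33), and without skeletal muscle replicate 3 the sign reversed (0.53, 0.60).

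By the naming rule, the most negative differences against skeletal muscle besides Trim63 were Egln3, an oxygen-sensing prolyl hydroxylase (-5.19 ± 0.25), the transcription factor Sox4 (-3.98 ± 0.59), Spsb1 (-3.61 ± 0.33) and the zinc transporter Slc39a14 (-3.30 ± 0.40). Egln3 changed by -1.38 in heart and 3.82 in skeletal muscle, so its sign differed. The most positive were the water channel Aqp4 (5.04 ± 0.82), Cited4 (4.59 ± 0.70), the IGF-binding protein Igfbp5 (4.52 ± 0.26), Slc41a3 (3.80 ± 0.32) and Plet1os (3.25 ± 0.54). Igfbp5 had 149 and 75.9 CPM against 83.5 to 154 CPM (median 115) in heart, within the comparison range in 1 library and below it in the other, and changed by -4.52 in skeletal muscle. Against kidney the most negative besides Col3a1 included complement C3 (-4.78 ± 0.38), the scaffold Akap12 (-4.65 ± 0.24) and the tubulin Tubb6 (-4.17 ± 0.50), and the most positive were the methyltransferase Inmt (7.17 ± 0.25), the oxygenases Fmo2 (3.13 ± 0.22) and Cyp4b1 (2.96 ± 0.28), carbonic anhydrase Car4 (3.02 ± 0.37) and Fah (2.997 ± 0.27). Inmt changed by 1.43 in heart and -5.66 in kidney, and C3 by 0.15 in heart and 5.01 in kidney.

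**Figure D5:**
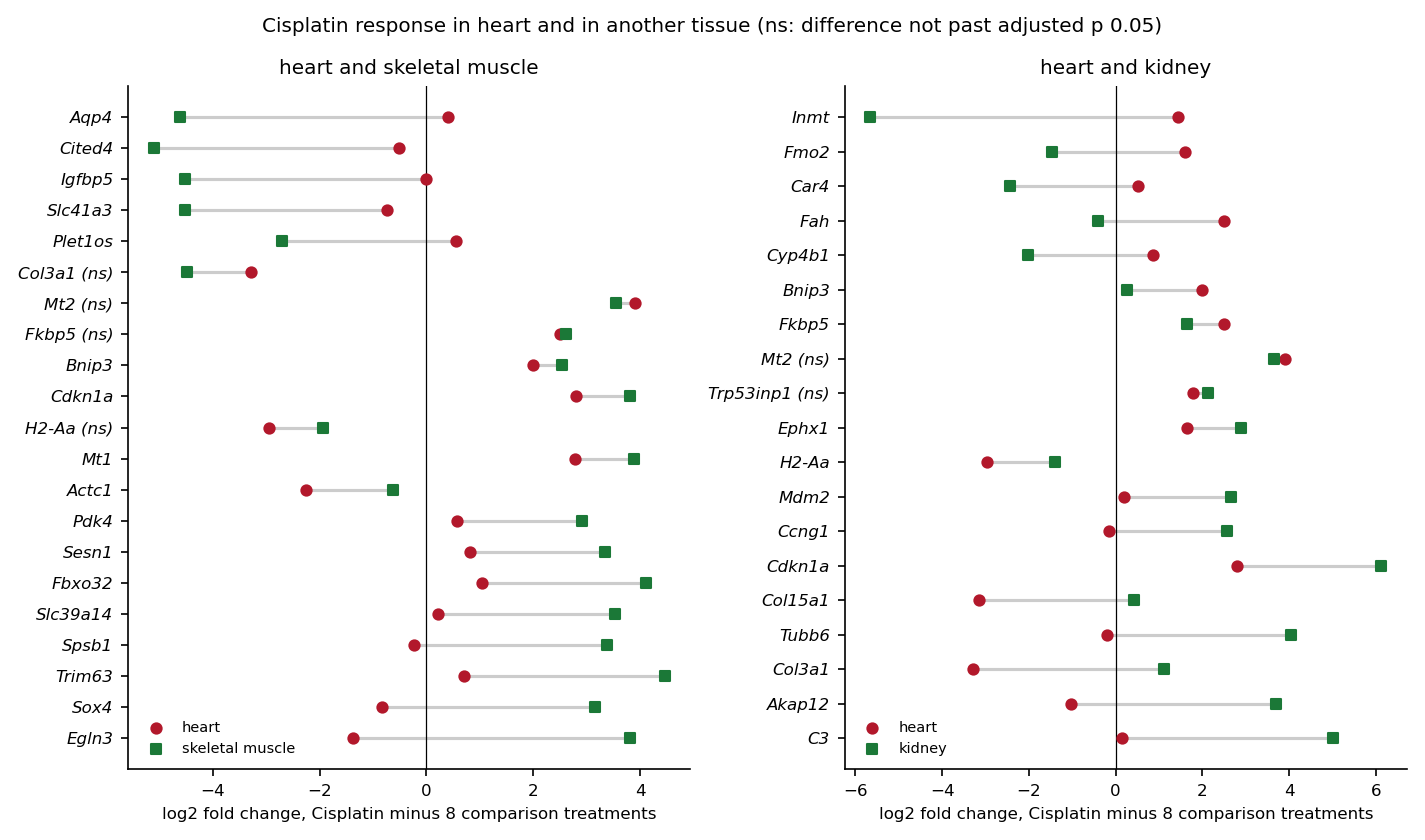
Log2 fold change with cisplatin in heart (red circles) and in skeletal muscle or kidney (green squares) for the named genes, sorted by the difference; "ns" marks differences not past an adjusted p of 0.05. Trim63 and Fbxo32 lie far to the right in skeletal muscle, Cdkn1a, Mdm2 and Ccng1 in kidney, and Mt2 nearly coincides in both panels.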

How the data were processed

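The authors deposited raw counts per gene for each tissue, made from 3′ end libraries; per the submitters' processing notes bcl2fastq 2.17, TopHat2 2.1.1, HTSeq 0.9.1 and the mm10 build were used, and counting settings are not given in the sources used here. The members, comparison treatments and gene lists were chosen with earlier results of these data known. The 18 heart libraries (9 groups) were fitted by edgeR 4.0.16 (R 4.3.3): genes kept by filterByExpr (minimum count 10), TMM factors, and a quasi-likelihood test of cisplatin minus the mean of 8 treatments, with Benjamini-Hochberg adjustment over all genes. A gene is called at an adjusted p under 0.05. The standard error is the log2 fold change divided by the square root of F. Joint fits gave tissue differences. The procedure was tested on simulated data.

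The 15 genes of largest change in each direction were named if called, with the same sign against each treatment, outside the comparison range and at a mean of 5 CPM or more, besides listed genes; 5 per direction were named for tissue differences, restricted after the values were seen to genes tested in both tissues with no group at 0. Symbols of Gm or Rik form were not named, and a few genes that meet these rules are not reported here. Intervals of 95% on count ratios are conditional binomial and hold counting error only. Alternatives included DESeq2 1.42.0. Promoters came from RefSeq GRCm38.p6 and gene positions from GENCODE M21.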

Additional observations from a re-analysis of the deposited data

Results flagged for a closer look

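The responses below differed between heart and another tissue by the test of the difference itself (joint edgeR quasi-likelihood fit, adjusted p under 0.05), each given as the change in heart minus that in the other tissue on the log2 scale. They are the genes named by rule for the 2 tissue comparisons and those described above, so they are a selection from the 2034 and 1796 genes that passed.

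Against skeletal muscle, the atrophy and oxygen-sensing genes Trim63 (-3.76), Fbxo32 (-3.07), Bnip3 (-0.54) and Egln3 (-5.19) responded lower in heart. Lower responses were also found for Sox4 (-3.98), Spsb1 (-3.61), Slc39a14 (-3.30), Sesn1 (-2.54), Pdk4 (-2.34), Actc1 (-1.63), Mt1 (-1.09) and Cdkn1a (-1.01). The more positive ones were Plet1os (3.25), Slc41a3 (3.80), Igfbp5 (4.52), Cited4 (4.59) and Aqp4 (5.04).

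Against kidney, the p53 targets Cdkn1a (-3.25), Ccng1 (-2.65), Mdm2 (-2.41) and Ephx1 (-1.16) responded lower in heart, as did the collagens Col3a1 (-4.34) and Col15a1 (-3.51). The same direction held for C3 (-4.78), Akap12 (-4.65), Tubb6 (-4.17) and H2-Aa (-1.47). The more positive responses in heart were those of Inmt (7.17), Fmo2 (3.13), Car4 (3.02), Fah (2.997), Cyp4b1 (2.96), Bnip3 (1.82) and Fkbp5 (0.94). Libraries whose omission ended a call are named with their values beside the result above.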

How the results depend on the processing

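The 1368 calls (760 higher, 608 lower) became 603 with DESeq2 (329 and 274) and 605 with CMCTween alone as the comparison (318 and 287), of which 603 and 546 were shared with the main calls; a fit of 2 groups gave 947 calls, 491 of them higher. Leaving out 1 library at a time gave 406 to 1528 calls, 243 to 867 higher and 163 to 661 lower, the lowest without cisplatin replicate 1 and the highest without Teriparatide replicate 1. RLE factors (1366), no filter (1346), the 7 drugs without the vehicle (1366), all 36 heart libraries (1439) and leaving out each treatment (1279 to 1455) stayed within 1.5 times. With DESeq2, 0 neutrophil markers rose (3 in the main fit) and 1 macrophage marker fell (5 in the main fit). It gave no adjusted p for 4 and 1 of them. Against CMCTween alone, 11 matrix genes fell (20 in the main fit) and 1 respiratory chain gene rose (13 in the main fit). Differences from skeletal muscle numbered 2034, and 1252 to 1890 with 1 cisplatin library left out. Those from kidney numbered 1796, and 985 to 1683 likewise; the other settings gave 1684 to 2029 and 1541 to 1785.

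The labels do not say whether replicate numbers pair the libraries. Over 8 pairs of groups, the correlation of deviations of same-numbered libraries was -0.04 to 0.06, and 0 exceeded 0.1. A correlation over many genes cannot decide this for a small part of them. The summed liver transcripts were higher in the higher-numbered library of every group. They were at 3.77 and 238 CPM in cisplatin replicates 1 and 3, and at 13.1 and 15.5 CPM in Repatha replicates 1 and 3. With the replicate block, 1132 genes were called in heart, 1798 differed from skeletal muscle and 1541 from kidney; the Mt2 difference from kidney then passed (0.77, adjusted p = 0.0017) and the Actc1 difference from skeletal muscle did not (-1.14, adjusted p = 0.11).

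Of 133 called genes named in the text, 72 stayed called under each of the 34 heart alternatives that gave them an adjusted p. The call was lost by 45 without cisplatin replicate 1, 19 without replicate 3, 44 with CMCTween alone, 25 in the fit of 2 groups and 19 with DESeq2, which gave no adjusted p for 18 others, Lcn2, Apod and Serpina3n among them. Of genes that kept their calls without either cisplatin library, Acta1 (0.43), Acta2 (0.23), Fam107a (0.27), Mid1ip1 (0.48), Myot (0.16), Pdk1 (0.065), H2-Ab1 (0.066) and Rn45s (0.052) lost them against CMCTween alone (adjusted p in brackets). The calls of Aen, C1qc, Ctrb1, Dcn, Igf1, Lox, Pdgfra, Pdk4, Pecam1 and S100a9 were also lost without 1 to 9 of the 16 comparison libraries taken singly, at adjusted p of 0.050 to 0.079. With 1 cisplatin library left out, the value of Lox ran over -0.93 to 2.67, that of Ctrb1 over -0.70 to 2.99 and that of Alb over -5.13 to 4.48, and the Actc1 difference from skeletal muscle over -2.46 to 0.53, so these signs reversed; the cause was not tested. The alternative without mitochondrially encoded genes was not run, since no symbol in the table has that prefix. Depth limits genes at a few counts: a cisplatin library of 758400 counts gives about 1.27 CPM per count.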
